A study of Mus musculus with 2 samples.

Results

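Integrins are the cell-surface receptors for extracellular matrix, and laminins, nidogens, perlecan and agrin build the basement membrane that many of them bind. The 44 genes described here were the integrin chains, laminin chains and basement membrane or linked genes on a list of symbols; collagens were left out of it. Each symbol matched 1 Ensembl identifier, so 44 of the 43346 Ensembl genes in the deposited tables were described, and all 44 were among the 21474 protein-coding ones. The rule names symbols and uses no measured value.

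RNA of over 200 nt was sequenced from limb tissue of mouse embryos of strain B6NCrl at 13.5 days (E13.5), with males and females pooled, from 10 ng of RNA with ERCC spike-ins. The labels give 1 group of 2 libraries, numbered as biological replicates 1 and 2; they came from separate biosamples that share a donor entry. Forelimb and hindlimb are not told apart in the labels, and no genetic change or treatment is named. A single group allows no contrast of conditions, so values below are levels, their spread over the 2 libraries (SD, n = 2) and ratios between genes of the same libraries. No p-value was computed.

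Each integrin is a dimer of an alpha and a beta chain, and the alpha chain largely sets what the dimer binds: laminin, collagen, or proteins with the tripeptide arginine-glycine-aspartate (RGD) such as fibronectin. Each laminin is a trimer of an alpha, a beta and a gamma chain. Nidogens link laminin to type IV collagen, perlecan and agrin add heparan sulfate chains to the sheet, and dystroglycan is a laminin receptor outside the integrin family. In the limb, basement membrane lies under the ectoderm and around vessels, nerves and muscle fibres, and integrins on mesenchymal and cartilage cells bind interstitial matrix.

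The sequences below carry the splice choices and motifs described with the results. They were read from GENCODE M21 transcripts on GRCm38, the assembly of the tables, in coding direction. The first set shows the alternative coding exons that end the cytoplasmic tails of the laminin-binding chains alpha6 and alpha3. Capitals mark codons of GFFKR, the motif beside the membrane in alpha integrin tails. They are in Itga6 form A (chr2:71853534-71853638, plus strand), Itga6 form B (chr2:71855854-71856012, plus strand) and Itga3 form A (chr11:95046483-95046590, minus strand), and were not found in Itga3 form B (chr11:95045611-95045763, minus strand).
Itga6 form A: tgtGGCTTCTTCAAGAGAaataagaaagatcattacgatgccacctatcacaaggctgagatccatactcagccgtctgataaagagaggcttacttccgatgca
Itga6 form B: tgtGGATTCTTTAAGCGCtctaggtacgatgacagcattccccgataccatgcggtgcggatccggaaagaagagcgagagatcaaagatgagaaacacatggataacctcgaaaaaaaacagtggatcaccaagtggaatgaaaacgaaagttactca
Itga3 form A: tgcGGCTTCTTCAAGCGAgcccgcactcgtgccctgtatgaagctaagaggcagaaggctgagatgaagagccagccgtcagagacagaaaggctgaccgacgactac
Itga3 form B: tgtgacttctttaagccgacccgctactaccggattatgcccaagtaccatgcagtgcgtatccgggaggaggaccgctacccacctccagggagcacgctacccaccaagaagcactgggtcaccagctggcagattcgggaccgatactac

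The second set shows the last coding exon of the 2 most abundant beta chains, with capitals on the codons of NPxY, the motif that talin and kindlin bind in beta tails (chr8:128732023-128732085 for Itgb1 and chr16:33948657-33948749 for Itgb5, plus strand). The third line is a stretch of the exon before it that transcript Itgb5-202 has and Itgb5-201 lacks (chr16:33947853-33947881), in capitals throughout; the 2 transcripts read the last exon in different frames.
Itgb1: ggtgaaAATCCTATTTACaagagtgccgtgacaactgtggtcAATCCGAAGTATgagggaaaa
Itgb5: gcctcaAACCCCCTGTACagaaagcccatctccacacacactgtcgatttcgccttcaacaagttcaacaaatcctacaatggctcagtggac
Itgb5-202 stretch: GTGAGCGCTCCAGGGCCCGTTATGAAATG

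The third set comes from the ligands. Nephronectin carries an RGD site, whose codons are in capitals at the end of this exon stretch (chr3:132904665-132904709, minus strand), and a 51 nt exon present in transcript Npnt-201 and absent from Npnt-202 (chr3:132931582-132931632, in capitals throughout). The last 3 are the exons of agrin transcript Agrn-203 that Agrn-202 lacks (12 nt at chr4:156169546-156169557, 24 nt at chr4:156168546-156168569 and 33 nt at chr4:156167777-156167809, minus strand). The 24 nt and 33 nt exons mark the agrin forms that cluster acetylcholine receptors at nerve-muscle synapses.
Npnt RGD site: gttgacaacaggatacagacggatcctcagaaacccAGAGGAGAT
Npnt 51 nt exon: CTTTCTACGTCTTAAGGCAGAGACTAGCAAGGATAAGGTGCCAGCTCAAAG
Agrn 12 nt exon: AAATCCCGCAAG
Agrn 24 nt exon: CGAGCTGACCAATGAGATCCCAGC
Agrn 33 nt exon: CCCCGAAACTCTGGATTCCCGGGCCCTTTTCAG

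Motifs were searched in frame, on the coding strand, in the most abundant long coding transcript of each member. GFFKR was found in 13 of 17 alpha chains, beside 0.112% of 21462 protein-coding genes (longest coding sequence each), and NPxY in 5 of 8 beta chains, beside 3.63%. RGD was found in 10 of the 19 members that are not integrins, beside 7.29% of all genes. It was also found in 5 of the 17 alpha and 3 of the 8 beta chains, so it was not particular to the ligands. NPxY was also found in 1 of the 17 alpha chains and 3 of the 19 members that are not integrins. The 44 members are long, with a median longest coding sequence of 3520.5 nt against 1179 nt over protein-coding genes, and shares among genes of like length were not computed. A match of letters is not shown to be a used site.

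Replicate 1 held 31253053 and replicate 2 held 42301448 expected counts on Ensembl genes, and the coefficient of variation between libraries was 5.19% (edgeR common dispersion, 17441 genes). The members took 0.255% of the counts in replicate 1 and 0.277% in replicate 2. Defining markers of limb mesenchyme (8 of 8), cartilage (5 of 5), epidermis (7 of 7), endothelium (6 of 6) and skeletal muscle (6 of 6) were at 1 TPM or more in both libraries, as were 2 of 4 liver markers (Afp at 22.3 and 1.73 TPM). Of heart, kidney and lung, 0 of 3 markers each were. TPM scales reads per length to a fixed total in each library, so that genes of unlike length can be compared. A short transcript with few counts can still hold much of a gene's TPM, as described below for Itgav. In this bulk tissue, fewer cells of a type and less RNA per cell cannot be told apart, and no level can be assigned to a cell type.

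Most of the receptor and matrix genes were present. At 1 TPM or more in both libraries, 39 of the 44 members were detected, beside 34.6% of all Ensembl genes and 61.0% of protein-coding genes. At 10 TPM or more in both libraries there were 17 members, beside 40.9% of protein-coding genes. All 3 laminin-binding, 4 collagen-binding and 4 RGD-binding alpha chains, alpha4 and alpha9, all 8 beta chains, all 5 laminin alpha chains, all 3 laminin beta chains, 1 of 2 gamma chains, all 4 nidogen and proteoglycan genes, dystroglycan, nephronectin and all 3 Fraser complex genes passed. The 5 that did not were the 4 alpha chains of leukocyte integrins and the laminin chain gene Lamc3.

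In the order of mean TPM, 6 of the 43 steps between neighbours were past the spread, meaning that the log2 ratio (0.1 TPM added) had the same sign in both libraries and a mean above 2 times the combined replicate SD of the 500 genes nearest in level. Those steps were Itgb1 over Nid2 (2.70-fold), Nid2 over Agrn (1.22-fold), Itgav over Dag1 (1.17-fold), Nid1 over Itga6 (1.41-fold), Hspg2 over Itga8 (1.75-fold) and Lama5 over Lama2 (1.32-fold). The other 37 neighbours did not differ beyond that spread. Below 10 TPM no step between neighbours passed, so the order of adjacent lower members is not resolved. Some lower members further apart in level did differ past the spread, such as Itga11 over Itga10 (3.08-fold).

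**Figure D1:**
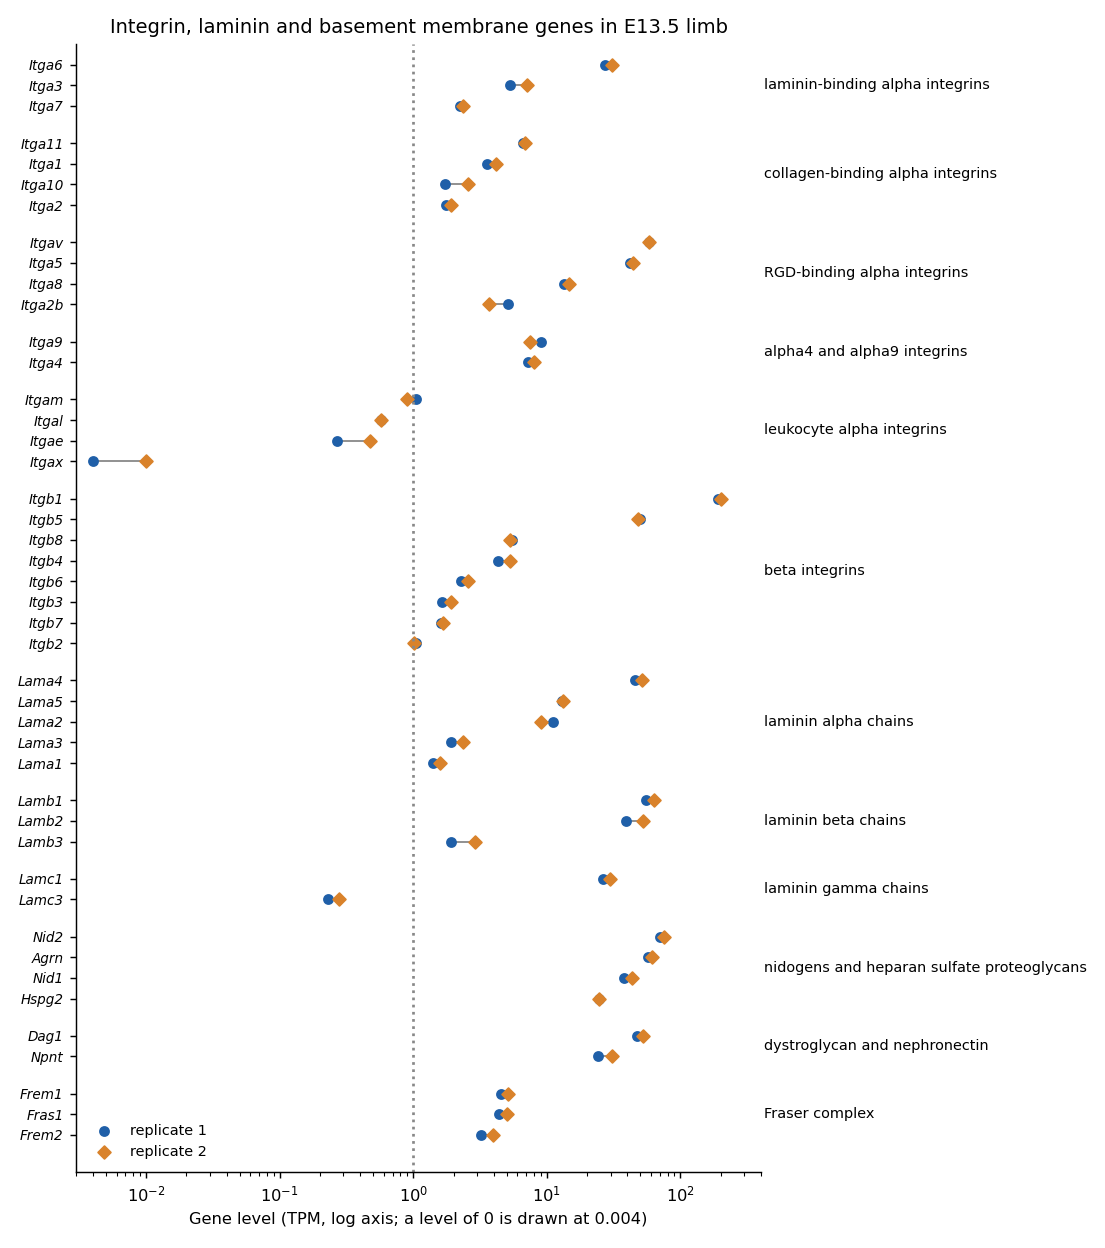
Gene level in TPM (log axis) of the 44 members in replicate 1 (blue circles) and replicate 2 (orange diamonds), grouped by role and ordered by mean within each role. The dotted line marks 1 TPM; Itgb1 stands highest at 190 and 202 TPM, and the 4 leukocyte alpha chains and Lamc3 lie at or below the line in at least 1 library.

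The beta1 chain was the most abundant member. Itgb1 (chr8:128685654-128733200), the partner of most alpha chains, had 190 TPM in replicate 1 and 202 TPM in replicate 2 (196 ± 8.51, SD, n = 2). It held 74.2% and 75.4% of the summed TPM of the 8 beta chains and 18.5% and 17.7% of all counts on the members. Itgb5, which pairs with alphav, had 49.9 and 48.5 TPM. Both were similar between libraries, and Itgb1 was 3.99-fold above Itgb5, past the spread.

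The remaining beta chains were far lower. Itgb8, a partner of alphav that activates latent TGF-beta, had 5.46 and 5.25 TPM. Itgb4, the hemidesmosome chain that pairs with alpha6 in epithelium, had 4.28 and 5.27 TPM and stood 40.5-fold below Itgb1. Itgb6, an epithelial partner of alphav, had 2.29 and 2.57 TPM, Itgb3 had 1.64 and 1.93 TPM, and Itgb7 had 1.60 and 1.67 TPM. Itgb2, the shared beta chain of leukocyte integrins, was just inside the limit at 1.05 and 1.02 TPM. Itgb5 was 26.2-fold above Itgb3, whereas the ratio of Itgb2 to Itgb7 was within the spread.

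Among laminin-binding alpha chains, alpha6 led. Itga6 (chr2:71745616-71858416), which pairs with beta1 or beta4, had 27.2 and 30.5 TPM. Itga3 (chr11:95044474-95076801), an epithelial laminin receptor chain, had 5.29 and 7.11 TPM, and Itga7, the laminin receptor chain of muscle, had 2.24 and 2.34 TPM. The 3 chains kept this order in each library. Itga6 was 4.63-fold above Itga3 and 12.1-fold above Itga7 by gene TPM, and 2.34-fold and 5.59-fold above them by the TPM of long coding transcripts, all past the spread.

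The collagen-binding chains were all detected at under 10 TPM. Itga11, a receptor chain for fibrillar collagen on mesenchymal cells, had 6.64 and 6.80 TPM, and Itga1, which prefers type IV collagen, had 3.59 and 4.19 TPM. Itga10, known from cartilage cells, had 1.74 and 2.57 TPM, and Itga2 had 1.77 and 1.91 TPM. Itga11 stood 3.08-fold above Itga10 and 1.71-fold above Itga1, and Itga1 stood 2.05-fold above Itga2. These ratios were past the spread; that of Itga1 to Itga2 was not when 1 TPM was added.

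The RGD-binding chains were the most abundant alpha class. Itgav (chr2:83724397-83806916), the common partner of beta3, beta5, beta6 and beta8, had 58.2 TPM in both libraries. Itga5, the fibronectin receptor chain, had 41.8 and 44.1 TPM. Itga8, the receptor chain for nephronectin, had 13.5 and 14.5 TPM, 3.05-fold below Itga5. Itga2b, the platelet fibrinogen receptor chain, had 5.12 and 3.68 TPM.

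The ratio of Itga5 to Itgav turned round with the measure. By gene TPM, Itga5 was 1.36-fold below Itgav. By long coding transcripts, Itga5 had 41.8 and 44.1 TPM and Itgav 10.9 and 12.3 TPM, so that Itga5 was 3.68-fold above Itgav. Both ratios were past the spread, and the change lies in Itgav, whose gene TPM was mostly that of a 463 nt transcript described below. Itga5 had 1 transcript in the tables and Itgav had 9, so only Itgav could change with the measure.

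Itga9, which binds tenascin and VCAM1, had 8.96 and 7.52 TPM and Itga4, which binds VCAM1 and fibronectin, had 7.17 and 7.98 TPM. Their ratio was within the spread by gene TPM and changed sign between the libraries, but Itga9 was 1.71-fold above Itga4 by long coding transcripts, past the spread.

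The leukocyte alpha chains were at the edge of detection. Itgam, found on macrophages and granulocytes, had 1.04 and 0.90 TPM from 72 and 90 counts. Itgal, found on lymphocytes and other leukocytes, had 0.57 TPM in both libraries from 56 and 71 counts. Itgae, the mucosal lymphocyte chain, had 0.27 and 0.47 TPM from 21 and 49 counts. Itgax, the dendritic cell chain, had 0 and 1 count; 3 counts, the limit that a count of 0 allows, would be 0.0365 TPM in replicate 1, for counting error alone. For the 1 count in replicate 2, the deposited credibility interval reached up to 0.0429 TPM. In the same libraries 6 of 6 macrophage and leukocyte markers were at 1 TPM or more, with summed levels of 96.6 and 105 TPM, and Ptprc at 1.86 and 1.75 TPM.

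Summed by class, the 17 alpha chains reached 185 and 193 TPM and the 8 beta chains 257 and 269 TPM, so the beta sum was 1.39-fold the alpha sum in each library. By long coding transcripts the beta sum was 2.27-fold and 2.21-fold the alpha sum. Within the alpha chains the RGD-binding class held 119 and 121 TPM, the laminin-binding class 34.7 and 40.0 TPM, alpha4 with alpha9 16.1 and 15.5 TPM, the collagen-binding class 13.7 and 15.5 TPM, and the leukocyte class 1.88 and 1.95 TPM. RNA levels do not give the amount of any dimer.

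Of the laminin alpha chains, alpha4 was the most abundant. Lama4 (chr10:38965515-39110188), a chain of vessel and mesenchymal basement membrane, had 45.8 and 51.5 TPM. Lama5 (chr2:180176373-180225859), a broadly used epithelial and vascular chain, had 13.0 and 13.2 TPM, and Lama2, the chain of muscle and peripheral nerve, had 11.0 and 8.96 TPM. Lama3, the epidermal chain, had 1.91 and 2.36 TPM, and Lama1, the chain of early embryonic basement membrane, had 1.41 and 1.58 TPM. Lama4 was 4.84-fold above Lama2, and Lama5 was 3.68-fold below Lama4, 8.30-fold above Lama1 and 5.95-fold above Lama3, all past the spread. By long coding transcripts Lama4 was 12.6-fold above Lama2, and Lama5 was 7.40-fold below Lama4, 2.45-fold above Lama1 and 1.76-fold above Lama3, also past the spread.

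Lamb1 had 55.4 and 63.5 TPM and Lamb2, known from the neuromuscular junction and vessel walls, had 39.3 and 52.1 TPM, so that Lamb1 was 1.31-fold above Lamb2, past the spread. Lamb3, the epidermal beta chain, had 1.93 and 2.91 TPM, 24.0-fold below Lamb1. Lamc1, the gamma chain of most laminins, had 26.3 and 29.6 TPM, 2.12-fold below Lamb1. Lamc3 had 0.23 and 0.28 TPM from 27.8 and 45 counts and lay 79.0-fold below Lamc1 (45.0-fold by long coding transcripts). These chains stood in the same order in both libraries.

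Class sums were 73.2 and 77.6 TPM for laminin alpha, 96.6 and 118 TPM for beta and 26.5 and 29.8 TPM for the 2 gamma chains on the list. Beta over gamma was 3.64-fold and 3.97-fold, and alpha over gamma 2.76-fold and 2.60-fold.

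All 4 nidogen and proteoglycan genes were above 20 TPM. Nid2 (chr14:19751265-19811787), second among the members, had 69.8 and 75.8 TPM, and Nid1 had 37.7 and 43.6 TPM, 1.79-fold below Nid2 and past the spread. Agrn (chr4:156165290-156197488) had 57.6 and 61.5 TPM, and Hspg2, which encodes perlecan, had 24.5 and 24.8 TPM, 2.41-fold below Agrn. By long coding transcripts Agrn had 19.7 and 22.0 TPM and Hspg2 had 11.4 and 13.3 TPM, and the gap narrowed to 1.69-fold, still past the spread. Nid2 overlaps the exons of Rtraf on the opposite strand over 437 bases; Rtraf had 206 and 203 TPM, and strand use in counting is not given in the sources used here.

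Dag1, which encodes both dystroglycan subunits, had 47.0 and 52.5 TPM. It was 2.01-fold above Hspg2, whose product it binds (3.78-fold by long coding transcripts), and 3.94-fold below Itgb1. Npnt (chr3:132881745-132950291), which encodes nephronectin, had 24.1 and 30.5 TPM and was 1.93-fold above Itga8, its receptor chain; the level of the ligand exceeded that of the receptor chain in both libraries.

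The 3 Fraser complex genes encode matrix proteins that anchor embryonic skin to dermis, and their loss in mice causes blisters and fused digits. Fras1 had 4.39 and 5.07 TPM, Frem1 had 4.56 and 5.16 TPM, and Frem2 had 3.21 and 3.97 TPM. Neither the ratio of Fras1 to Frem2 nor that of Frem2 to Frem1 was past the spread.

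Of the 33 pairs of related genes compared, 28 were past the spread by gene TPM, 19 with the first-named gene higher and 9 with the second. By long coding transcripts 27 were past it, 19 and 8. The 5 pairs within the spread were Itgb2 with Itgb7, Itga9 with Itga4, Itgam with Itgal, Fras1 with Frem2 and Frem2 with Frem1. Being within the spread of 2 libraries does not show that levels were equal. The pairs were chosen with earlier results of these data known. How many pairs of any genes would pass the same rule was not computed, so the counts only describe these pairs.

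**Figure D2:**
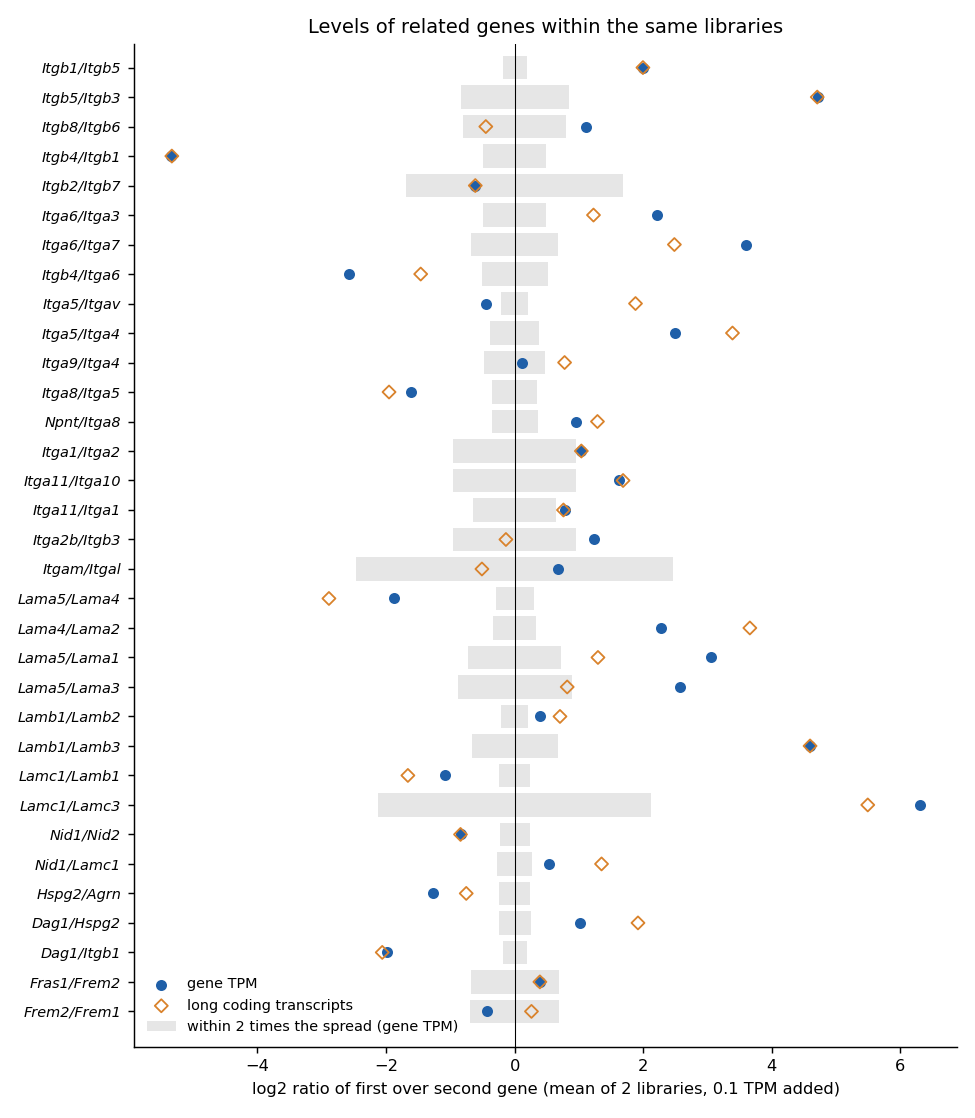
Log2 ratio of the first over the second gene of 33 pairs (mean of 2 libraries, 0.1 TPM added), from gene TPM (blue circles) and from long coding transcripts (open orange diamonds). Grey bars span 2 times the spread of gene TPM either way; 28 circles lie past it, and Itga5/Itgav, at -0.44 by gene TPM, lies at 1.88 by long coding transcripts.

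Gene TPM adds up all transcripts of a gene, so it was set beside the sum over long coding transcripts, those annotated as protein-coding with a coding sequence of at least 50% of the gene's longest. Among the 17 members at 10 TPM or more, 4 (23.5%) had under 50% of their TPM in long coding transcripts in both libraries, beside 12.5% of 8760 protein-coding genes at that level and 16.5% of the 6641 with several transcripts; 14 of the 17 members have several. The 4 were Itgav (18.8% and 21.1%), Lama5 (28.9% and 29.2%), Agrn (34.2% and 35.8%) and Itga6 (46.8% and 45.4%). Hspg2 was under that limit in replicate 1 (46.6%) and over it in replicate 2 (53.6%). The median share was 75.1% and 82.0% over the members, and 94.3% and 94.2% over all such genes. By share of expected counts, with no division by length, 0 of the 17 fell under 50%.

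The transcripts that held most of the rest were shorter than the long coding ones. In Itgav, the 463 nt transcript Itgav-205 held 71.4% and 70.3% of the TPM from 315 and 412 counts, 15.8% and 14.2% of the counts of the gene. In Agrn, the retained-intron transcript Agrn-205 of 2071 nt held 62.7% and 60.3%, and in Hspg2 the 820 nt transcript Hspg2-202 held 53.5% and 46.4%. Lamc1-204 (1447 nt) held 41.5% and 43.4%, Itga6-203 (2721 nt) held 35.9% and 35.1%, and Lama4-207 (511 nt) held 30.4% and 27.1%.

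Where these transcripts lie along the gene was then read from the annotation, a comparison added after the data were seen. Among the members at 10 TPM or more, 10 transcripts of 8 genes outside the long coding class held at least 20% of their gene's TPM in the mean. All 10 of them started beyond 75% of the gene's length, counted from its 5′ end. Of 2042 such transcripts of all protein-coding genes at that level 14.9% did so, and of the 477 in genes with a longest coding sequence of at least 3000 nt, which all 8 of the members have, 24.5%. Transcripts of 1 gene are not independent, and 3 of the 10 are from Lama5. By long coding transcripts alone Lama5 had 3.76 and 3.86 TPM, under the limit of 10 TPM. Lama2, at 11.0 and 8.96 TPM, fell just short of that limit in replicate 2, so its transcripts of this kind are not among the 10. Over all levels 19 such transcripts of 15 members were found, 11 of them starting beyond 75% of the gene's length. The others, in Itgb8, Lama2, Frem1, Itga4, Itgae and Itgam, started near the 5′ end. What these short transcripts are was not tested.

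On long coding transcripts the members stood in another order. Itgb1 and Nid2 kept ranks 1 and 2 of 44. Itgav moved to rank 15, against 5 by gene TPM, Agrn to 11, against 3, Lama2 to 29, against 18, and Itgb8 to 35, against 23. Itga5 stood at 6, against 10. It had 1 transcript in the tables, a long coding one, so its TPM could not differ between the 2 measures. Itgb8 had 1.52 and 1.81 TPM by this measure, which turned its ratio to Itgb6 round to -0.45 on the log2 scale, within the spread, against 1.11 by gene TPM.

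**Figure D3:**
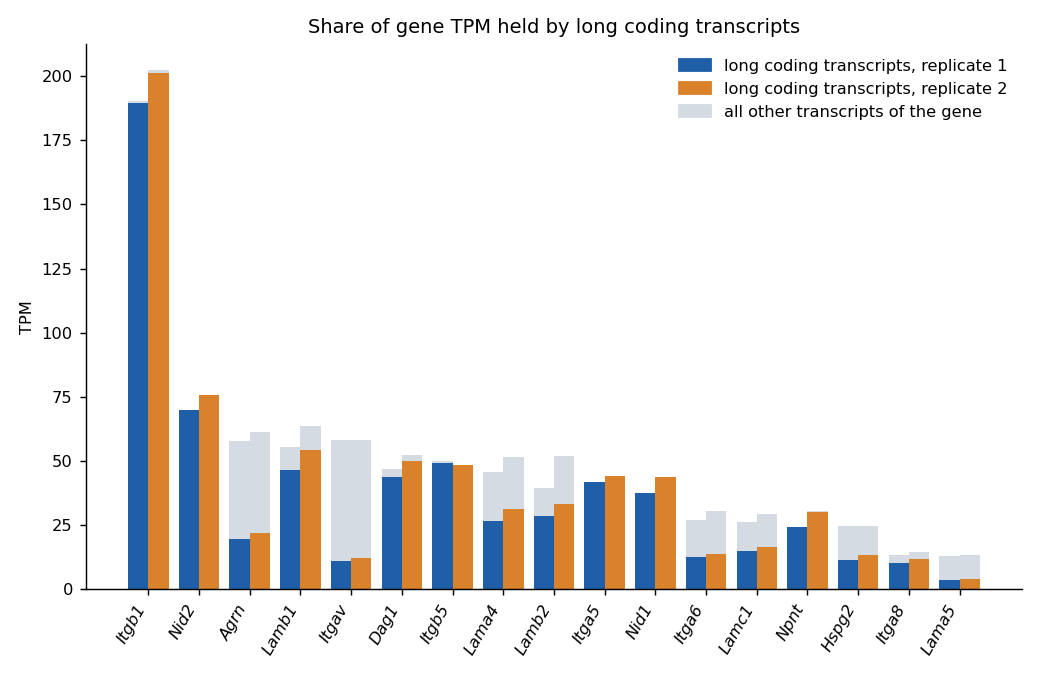
TPM of the 17 members at 10 TPM or more in both libraries, replicate 1 left and replicate 2 right of each pair of bars. Coloured parts are long coding transcripts and grey parts all other transcripts. Grey makes up most of Agrn, Itgav and Lama5 and almost none of Itgb1 and Itgb5. Nid2, Itga5 and Nid1 had 1 transcript each in the tables and so can have no grey part.

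Splice and start-site forms were read from the same tables, as model-based shares. For Itga6, form A (Itga6-201) held 84.6% of the long coding TPM in replicate 1 and 90.4% in replicate 2, and form B (Itga6-202) held 10.7% and 5.85%. Form A had 943 and 1459 counts and form B 115 and 91.0, so form A prevailed in both libraries.

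Itga3 also had more of form A, but the share was not stable. Form A held 67.3% and 99.0% of the long coding TPM and form B 32.7% and 1.01%, from 165 and 7.69 counts of form B. By posterior mean the share of form B was 30.0% and 12.7%. The 2 libraries therefore agree on the main form and not on the size of the minor share.

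Itgb1 was almost all Itgb1-201, with 99.6% and 99.5% of the gene's TPM, the transcript whose tail has the 2 NPxY motifs shown above. It was the only long coding transcript of Itgb1 in the tables, so other long forms of the tail could not be told apart. Itgb5-202, the transcript with its NPxY motif, held 93.7% in each library, and Itgb5-201, without it, held 5.42% and 6.30%. Itga7 had 1 transcript in the tables, so its splice forms could not be told apart.

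Agrin transcripts with the long N-terminus (Agrn-206), the start that binds laminin, held 89.9% and 97.0% of the long coding TPM, and those with the short N-terminus held 10.1% and 3.04%. Agrn-203, with the 3 small exons shown above, had 24.5 counts in replicate 1 and 0 in replicate 2, at 0.81% and 0% of the long coding TPM. Exons this short leave few reads to tell the transcripts apart, so other combinations of them were not resolved.

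Lama3 was mostly the short form, Lama3-202, with 91.6% and 89.8% of the TPM, and the long form Lama3-201 held 8.43% and 10.2%. Npnt without the 51 nt exon (Npnt-202) held 67.9% and 59.2% of the long coding TPM, transcripts with it 17.9% and 21.1%, and Npnt-205 14.3% and 19.7%. The RGD codons lie in Npnt-201, Npnt-202 and Npnt-205 alike. Dag1 transcripts Dag1-204, Dag1-201 and Dag1-203 share 1 coding sequence of 2679 nt and held 52.5%, 27.6% and 11.7% of the TPM in replicate 1 and 50.2%, 25.7% and 16.8% in replicate 2.

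Itgb4-202 held 63.3% and 73.3% of the Itgb4 TPM and Itgb4-201 held 19.1% and 26.7%. Itgb4-203 held 17.6% in replicate 1 and 0% in replicate 2. By posterior mean the shares were 44.7% and 61.7% for Itgb4-202 and 9.45% and 14.7% for Itgb4-201. Those of Itgb4-203 were 16.35% and 1.38%, so the sizes of these shares depend on the estimate. In Itgav, Itgav-201 and Itgav-202 differ by 108 nt of coding sequence and split the long coding TPM, at 41.8% and 52.6% for Itgav-201 and 58.2% and 47.4% for Itgav-202.

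**Figure D4:**
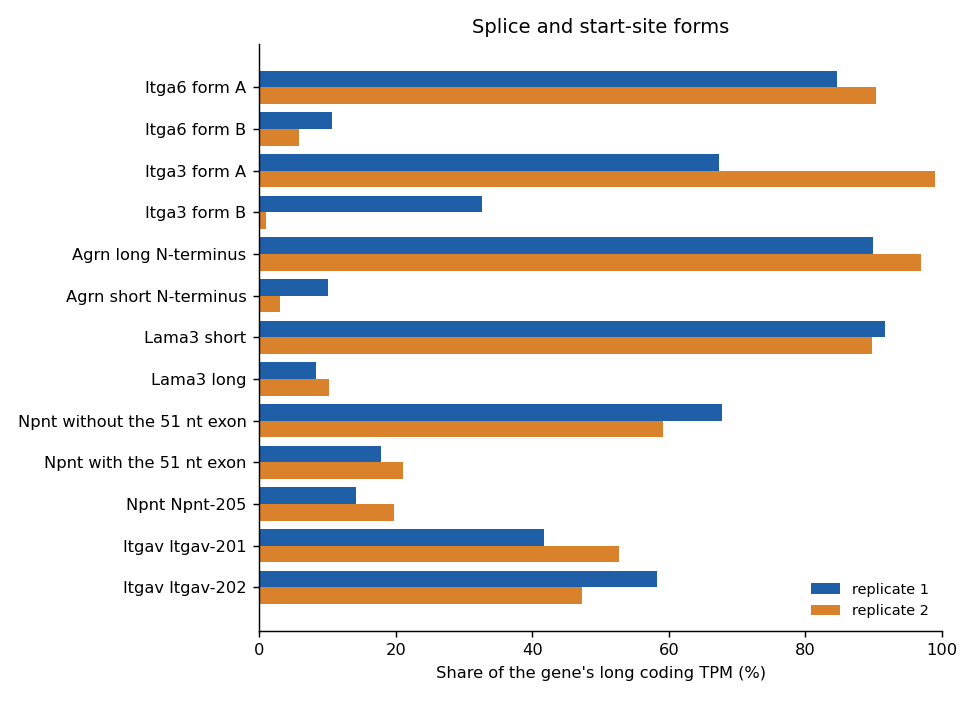
Share of the gene's long coding TPM (%) held by splice or start-site forms of Itga6, Itga3, Agrn, Lama3, Npnt and Itgav, replicate 1 in blue above replicate 2 in orange. Itga6 form A holds 84.6% and 90.4%; Itga3 form B holds 32.7% in replicate 1 and 1.01% in replicate 2.

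The 2 libraries gave close levels for the members, as they did for most genes of like depth. Of 38 members averaging 100 counts or more, 0 differed by more than 1.5-fold between libraries (TMM-scaled counts, 0.5 added), beside 0.667% of 13185 genes at that depth, 0.326% higher and 0.341% lower in replicate 2. The 6 others had too few counts for this comparison. The log2 ratio of replicate 2 over replicate 1 was highest for Lamb3, at 0.48 (141 and 266 counts), and lowest for Itga2b, at -0.49 (186 and 179 counts).

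Within that range the members leaned to one side. The ratio was above 0 for 34 of the 38 and below 0 for 4, beside 51.9% of all genes above 0, with a median of 0.14 against 0.01 for all genes. Among genes with a longest coding sequence of at least 3000 nt, 73.0% of 1825 were above 0, with a median of 0.07, and 27 of the 30 members of that length were. After the median of genes of like coding length was subtracted, a correction added after the data were seen, 29 of the 38 were above 0, with a median of 0.08. With 1 library a side, the shift has no replicate check.

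Markers of some cell types moved with it. All 7 epidermis markers were higher in replicate 2, with a median ratio of 0.14 and summed levels of 698 and 793 TPM. Beside them stood ratios of 0.48 for Lamb3, 0.30 for Lama3, 0.27 for Itgb4 and 0.21 for Itgb6. Lower ratios were 0.20 for Itga3, 0.12 for Itga6 and 0.02 for Lama5. Of 6 markers each, 5 of skeletal muscle (median 0.11), 5 of macrophages and leukocytes (median 0.09) and 3 of endothelium (median 0.02) were higher. Of 5 each, 3 of the Schwann lineage (median 0.13) and 3 of cartilage (median 0.10) were, and 4 of the 8 limb mesenchyme markers (median 0.00). Of 7 megakaryocyte and platelet markers 3 were deep enough, and 0 of these were higher in replicate 2 (median -0.33). Summed levels of all 7 were 52.5 and 41.1 TPM, with Pf4 at 41.4 and 33.5 TPM. Itga2b had a ratio of -0.49, whereas Itgb3, the gene compared with it as a pair, had 0.22. Liver markers differed most, with summed levels of 38.7 and 5.66 TPM and 3 of the 3 tested beyond 1.5-fold. The part of these cells in the members' ratios was not tested.

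**Figure D5:**
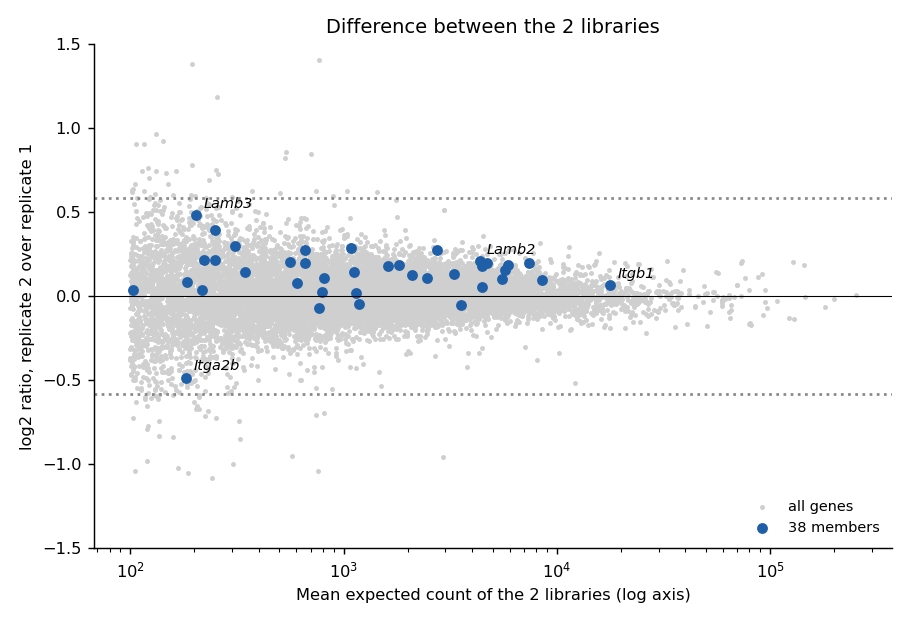
Log2 ratio of replicate 2 over replicate 1 (TMM-scaled counts) against the mean expected count of the 2 libraries (log axis), for genes averaging 100 counts or more (grey) and the 38 members among them (blue). Dotted lines mark 1.5-fold either way, and 11 genes outside the axis limits of 1.5 are not drawn; all 38 members lie between the dotted lines and 34 lie above 0.

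Genes that work with the members were described from listed groups and ranked by gene TPM. All 30 focal adhesion genes, which link integrin tails to actin, were detected, with a median of 40.6 TPM. The highest were Ilk, integrin-linked kinase, at 281 and 280 TPM, Flna, filamin A, at 228 and 261 TPM, and Actn4, an alpha-actinin, at 218 and 240 TPM. Parvg, a parvin of blood cells, was lowest at 1.70 and 1.34 TPM. Flna had 76.0 and 95.1 TPM in long coding transcripts and was not among the 3 highest by that measure.

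Of 16 integrin ligands 14 were detected, with Col1a1 at 835 and 973 TPM, Col2a1 at 595 and 699 TPM and Fn1, fibronectin, at 183 and 195 TPM (71.8 and 92.1 TPM in long coding transcripts). Vtn, vitronectin, a plasma protein made in liver, was lowest at 1.47 and 0.33 TPM. It had 43 and 15 counts, too few to compare the libraries, and a link to the liver markers was not tested. Of 19 other basement membrane genes 17 were detected. The fibulins Fbln1 (180 and 193 TPM) and Fbln2 (157 and 160 TPM; 88.6 and 91.2 TPM in long coding transcripts) and the matricellular gene Smoc2 (121 and 133 TPM) were highest, and the hemicentin Hmcn2 (0.02 and 0.05 TPM) was lowest.

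All 14 genes of the dystroglycan complex were detected, led by the sarcoglycans Sgce (63.5 and 63.6 TPM) and Sgcb (34.5 and 36.9 TPM) and the dystrobrevin Dtnb (36.0 and 30.9 TPM), with Dtna, the other dystrobrevin, lowest at 3.97 and 4.51 TPM. In long coding transcripts Dtnb had 4.73 and 6.0 TPM, below utrophin (Utrn, 17.4 and 18.4 TPM). Of the 16 genes listed for building the laminin-binding sugar on dystroglycan, 15 matched a symbol and all 15 of these were detected. The highest were the 3 subunits of the enzyme that makes the mannose donor, with Dpm3 at 100 and 105 TPM, Dpm2 at 97.9 and 92.4 TPM and Dpm1 at 73.8 and 69.3 TPM. Dpm1 had 8.90 and 13.5 TPM in long coding transcripts, whereas Dpm3 (95.0 and 99.2 TPM) and Dpm2 (74.0 and 73.5 TPM) remained the highest by that measure. Over these 5 lists, 0 genes deep enough to compare differed by more than 1.5-fold between libraries.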

How the data were processed

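The 2 libraries, replicates 1 and 2 of 1 group, were analysed from 1 gene and 1 transcript table each. Reads were placed on mm10, per the labels, with the GENCODE M4 annotation, per the deposited text files. The aligner, the quantifier and any strand setting were not given in the sources used here. The deposited expected counts are model-based and need not be whole, and the deposited TPM values scale them by effective length, per the file headers. The deposited percent column (IsoPct) gives each transcript's share of its gene, and the deposited signal bounds are TPM credibility intervals, per the file headers; the TPM of 5 members lay outside its interval. Symbols came from an Ensembl table (42462 of 43346 genes matched), and positions, biotypes and coding sequences from GENCODE M21 (same assembly). It held 204 of 206 member transcripts, 191 at the same length.

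Counts were rounded and scaled with edgeR 4.0.16 (TMM; R 4.3.3); DESeq2 1.42.0 size factors and the spike-in total were alternatives. Everything else was done with numpy 2.4.6 and pandas 2.3.3 under Python 3.11.15. Rows with bare-number identifiers took 0.000226% and 0.000148% of counts and were left out. Whether the replicates are separate animals or pools is not stated beyond their biosamples, so the spread may be partly technical. The 44 members, the pairs and the lists were chosen with earlier results of these data known. Named genes were all members by role and the 3 highest and the lowest of each list (1 lowest gene is not reported here); Itgav forms, short transcripts and Rtraf were named after their values were seen. Dispersion, fold counts and the pair rule were tested on simulated data.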

Additional observations from a re-analysis of the deposited data

How the results depend on the processing

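No paired analysis was possible because the 2 libraries form 1 group. With 1 library left out at a time, detected members numbered 39 to 40, pairs past the spread 27 to 28, neighbours past it 4 to 5 (against 6 with both libraries) and members under 50% in long coding transcripts 4 to 5. The class sums then ranged from 185 to 193 TPM for alpha integrins, 257 to 269 for beta integrins, 73.2 to 77.6 for laminin alpha, 96.6 to 118 for laminin beta and 26.5 to 29.8 TPM for laminin gamma chains. At a limit of 5 TPM, 23 members were detected. Without the limit of 100 counts, 2 members differed by over 1.5-fold between libraries, and at a mean of at least 10 counts 1 did, Itgae; the second, Itgax, had 1 count in all. By long coding transcripts, a measure chosen after the data were seen, the sums were 115 TPM for alpha integrins, 38.6 for laminin alpha, 83.3 for laminin beta and 16.1 for laminin gamma chains, against 189, 75.4, 108 and 28.2 by gene TPM. By share of counts, 0 members fell under 50% in long coding transcripts, against 4 by TPM. The log2 ratios that changed sign were Itga5 over Itgav (-0.44 by gene TPM, 0.87 by counts, 1.88 by long coding transcripts), Itga2b over Itgb3 (1.24, -0.41 and -0.14; 0.90 and no longer past the spread without replicate 1), Itgb8 over Itgb6 (1.11 and, by long coding transcripts, -0.45), Frem2 over Frem1 (-0.43, by counts 0.40, by long coding transcripts 0.26), Itgam over Itgal (0.67 and, by long coding transcripts, -0.51, within the spread both times) and Itga9 over Itga4 (0.12 and, without replicate 1, -0.08, within it both times); counts are not divided by length, and the cause was otherwise not tested. For Itgam, a 4310 nt transcript not in M21 held 44.9% and 49.9% of the counts. With no coding sequence given for it, it could not enter the long coding class, and its part in the Itgam ratio was not tested. TMM, DESeq2 and spike-in scaling, 5 counts added and the correction for coding length left 0 members beyond 1.5-fold. Members under about 100 counts, which include the leukocyte alpha chains, Itgb2 and Lamc3, cannot be compared at this depth.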
